A study of Mus musculus with 8 samples.

Results

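The endosomal sorting complexes required for transport (ESCRT) are the machinery that pinches off membrane from the cytosolic side, and the genes described here are 10 of its members: Tsg101, Pdcd6ip, Chmp1a, Chmp2a, Chmp2b, Chmp3, Chmp4b, Chmp5, Vps4a and Vps4b. They were taken by symbol from a table of 54532 mouse genes, in which each symbol occurred once, and all 10 had enough counts to be tested among 12911 genes. The samples were bone marrow-derived macrophages (BMDMs), which are macrophages that M-CSF, a macrophage growth factor, drives out of cultured bone marrow, from WT and Gsdmd-/- mice. Both groups were differentiated for 6 days and received no treatment, and total RNA was sequenced in 4 libraries per genotype. The WT mice were female C57BL/6J aged 6 to 8 weeks and were bought from a supplier, whereas the Gsdmd-/- mice were a gift and were maintained in a university animal facility, and their strain and age were not stated separately. Genotype and origin of the mice therefore cannot be told apart. Neither the labels nor the methods state that each library came from a separate mouse, so p-values measure the spread between these libraries, which may be technical.

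Gasdermin D, the protein made from Gsdmd, is cleaved by inflammatory caspases and its free end assembles pores in the plasma membrane. When calcium enters through such pores, ESCRT proteins gather at the damaged membrane and shed the pore-bearing patch as vesicles, which delays or prevents lytic death. The same machinery sorts receptors into multivesicular bodies, seals the nuclear envelope and cuts the last bridge between dividing cells. Tsg101 belongs to ESCRT-I and Pdcd6ip encodes ALIX, an adaptor that can recruit ESCRT-III by a route of its own. The CHMP proteins are ESCRT-III subunits that polymerize into filaments at the neck of a bud, and Vps4a and Vps4b encode the ATPases that take these filaments apart.

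The promoters of the members are shown first because they are where transcription of these genes starts and several hold the same short motifs, and whether the motifs bear on the levels was not tested. RefSeq promoter windows (GRCm38.p6), which run from 250 bases before a transcription start to 50 bases after it, were found for all 10 members, with a pair of windows for Chmp3 and thus 11 windows. The letters CCGGAAG, a core motif of ETS factors, occurred on either strand in windows of 5 members (Chmp1a, Chmp3, Chmp5, Pdcd6ip and Tsg101), compared with 8.86% of all 32851 promoter windows. The motif of NRF1, read as GCGC followed by any base and then TGCGC, occurred in windows of 5 members (Chmp2a, Chmp2b, Chmp3, Chmp5 and Pdcd6ip), compared with 4.60% of all windows. ETS and NRF1 motifs do not overlap in these letters, and 7 members had at least one of them. TGACGTCA, the cyclic AMP response element, was found in the window of Chmp2a alone among the members and in 1.79% of all windows, and TCACGTGA, which is contained in the CLEAR element of lysosomal genes, was found in that of Pdcd6ip alone and in 0.974% of all windows. Chmp4b, Vps4a and Vps4b had none of the 4 motifs. GC content was above the median of all windows (52.7%) in 9 of the 11 windows. The motifs were chosen after the sequences had been seen, and a match of letters shows neither binding nor an effect on transcription.

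For 3 members, the 120 bases upstream of both the RefSeq start and the GENCODE gene are given 5′ to 3′ on the strand of the gene, with the matched motif in capitals. They show an ETS match for Tsg101 (chr7:46919970-46920089, minus strand), a CLEAR match for Pdcd6ip (chr9:113708260-113708379, minus strand) and an NRF1 match for Chmp2a (chr7:13034808-13034927, minus strand).
Tsg101: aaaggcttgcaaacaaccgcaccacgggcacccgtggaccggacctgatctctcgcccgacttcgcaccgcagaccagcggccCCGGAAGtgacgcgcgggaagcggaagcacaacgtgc
Pdcd6ip: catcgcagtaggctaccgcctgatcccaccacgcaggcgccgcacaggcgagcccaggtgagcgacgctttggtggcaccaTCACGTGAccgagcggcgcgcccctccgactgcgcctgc
Chmp2a: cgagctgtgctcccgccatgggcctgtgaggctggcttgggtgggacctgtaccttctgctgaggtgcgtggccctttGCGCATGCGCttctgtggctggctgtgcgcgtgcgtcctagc

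The depth was 16210182 to 16659319 counts per WT library and 14935114 to 16794810 per Gsdmd-/- library. Levels are given as CPM, a unit that adjusts the counts for the depth of each library, in which 3 counts, the most that a count of 0 allows, came to 0.177 to 0.199. Gsdmd itself, which checks the labels, was 75.3 ± 14.1 CPM in WT and 16.2 ± 1.56 CPM in Gsdmd-/- (SD, n = 4 each), which is -2.22 as log2 fold change (SE 0.14, edgeR quasi-likelihood test, adjusted p = 4.665e-05). WT 2 and WT 3 stood apart from the other 6 libraries on the first principal component, which held 43.6% of the variance, with scores of 45.4 and 38.8 against -25.9 to -7.19. All 7 macrophage markers were detected, and their summed level was 15316 to 23409 CPM in WT and 19377 to 23365 CPM in Gsdmd-/-, most of it Lyz2. Without Lyz2 the sum was 2317 to 3160.3 CPM in WT and 2608 to 2689 CPM in Gsdmd-/-. Single macrophage markers differed in direction. Adgre1 was lower in Gsdmd-/- without overlap (242 to 275 against 277 to 326 CPM) but was not called (edgeR adjusted p = 0.3097). In WT 2 and WT 3, Fcgr1 was at 7.09 and 6.66 CPM against 36.2 and 40.7 CPM in WT 1 and WT 4, and Mertk was at 249.6 and 212 CPM against 141 and 101 CPM. The part of these markers in the levels of the ESCRT genes was not tested. Lymphoid and erythroid markers summed to at most 0.487 CPM, with Cd3d, Hbb-bs and Hba-a1 at 0 in all libraries. Neutrophil markers summed to 4.63 to 6.66 CPM in WT and 6.04 to 6.98 CPM in Gsdmd-/- with Ly6g at 0, dendritic cell markers to 3.30 to 4.99 and 2.31 to 3.68 CPM with Siglech at 0, and stromal markers to 1.28 to 2.92 and 1.18 to 1.90 CPM. Higher sums were found for endothelial markers (142 to 267 CPM in WT and 133 to 212 CPM in Gsdmd-/-, mainly Vwf and Kdr, with Tek at 0) and for mast cell and basophil markers (10.5 to 71.9 and 46.2 to 67.8 CPM, mainly Kit, with Mcpt4 at 0). In these bulk samples, fewer cells of a type and less RNA per cell cannot be told apart.

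The comparison of the genotypes asks whether BMDMs from Gsdmd-/- mice carry a different amount of the RNAs for removing gasdermin D pores. Pores and protein were not measured in these libraries, and the cells of both genotypes were untreated. Gsdmd RNA remained at 16.2 CPM on average in Gsdmd-/-, and why it remained was not examined. No member passed the test. With an adjusted p under 0.05 as the threshold (edgeR quasi-likelihood test, Benjamini-Hochberg over the 12911 genes), 0 of 10 members were called, where 0.349% of all genes tested were called in either direction. At an unadjusted p under 0.05, 0 of 10 members were counted by this test, limma voom, DESeq2 and the edgeR exact test, where 12.0% of all genes tested were counted by the first of these. With a log2 fold change of 0.5 or more in either direction required as well, which 4.83% of all genes passed, the count of members was 0. The CPM of the genotypes overlapped for all 10 members, whereas 7.60% of all genes had no overlap. The fitted log2 fold change was above 0 for 10 of 10 members, with a median of 0.088, beside 48.5% of all genes and a median of -0.0068. When libraries were left out, this shared direction was kept in full only without WT 4. It held for 6 members without WT 2 and WT 3, for 7 without WT 2 and for 8 or 9 without any other single library.

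Most members were measured more precisely than the typical gene. Their mean level was between 46.6 and 339 CPM, at the percentiles 70.3 to 96.8 of the genes tested, whose median was 20.3 CPM, and the median SE of their log2 fold changes was 0.092 compared with 0.15 for all genes. The 95% intervals of single members ran from 0.835-fold at the lowest (Chmp4b) to 1.38-fold at the highest (Chmp2a). The interval of each member gives the sizes of change that remain possible for it, and its width differed between members.

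**Figure D1:**
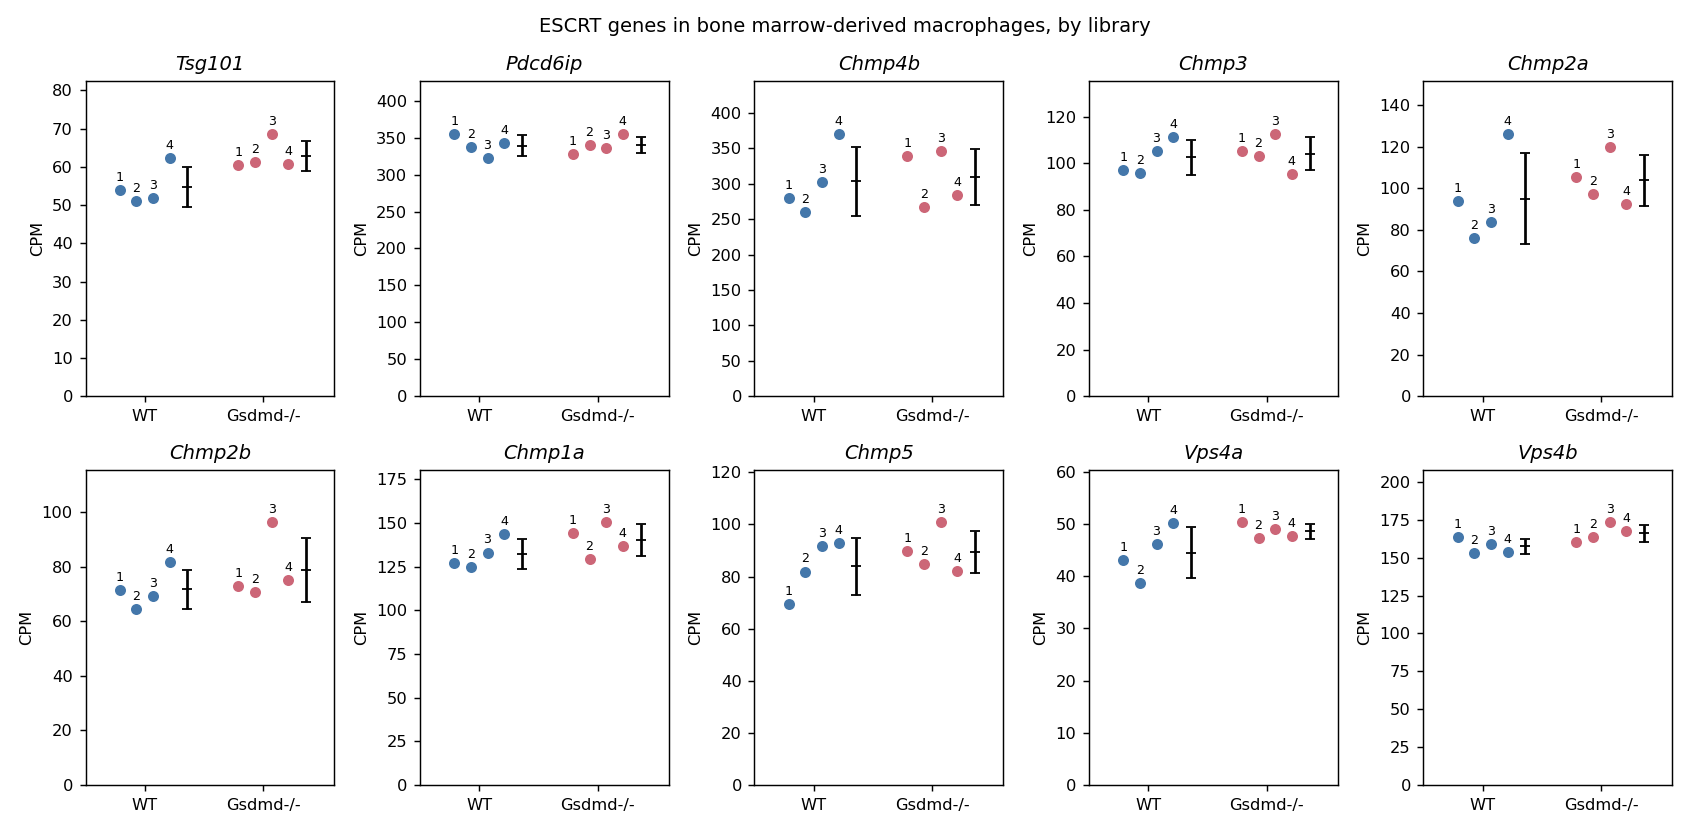
CPM (vertical axis, linear from 0) of each of the 10 ESCRT genes in the 4 WT and the 4 Gsdmd-/- libraries, with 1 point per library and a bar at the mean of each genotype. The points of the genotypes overlap in all 10 panels, most closely for Pdcd6ip with means of 339 and 340 CPM.

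Tsg101, the ESCRT-I subunit that binds ubiquitinated cargo and the late domains of viruses, came closest to the threshold. Its level was 53.9, 51.0, 51.8 and 62.4 CPM in WT 1 to 4 and 60.4, 61.3, 68.7 and 60.7 CPM in Gsdmd-/- 1 to 4. WT 1, WT 2 and WT 3 lay below every Gsdmd-/- library, and WT 4 lay among them. The means were 54.8 ± 5.23 and 62.8 ± 3.97 CPM (SD, n = 4 each), and the log2 fold change was 0.20 (SE 0.091, 95% interval -0.0046 to 0.40, edgeR unadjusted p = 0.05449, adjusted p = 0.4304). Leaving out 1 library at a time gave log2 fold changes of 0.15 to 0.27, and without WT 2 and WT 3, the libraries that stood apart, it was 0.11 (edgeR adjusted p = 0.7536). Without WT 4, the unadjusted p fell below 0.05 for Tsg101 and Chmp2a, where it did for 20.5% of all genes, and the adjusted p of Tsg101 was 0.1292, the lowest of any member under any setting tried. With upper-quartile normalization, the unadjusted p was below 0.05 for 1 of 10 members, Tsg101, beside 12.1% of all genes, and its adjusted p was 0.4054. The gene lies on the minus strand at chr7:46888949-46919969, and a pseudogene copy on chromosome 15, Tsg101-ps, which could share reads with it, had between 3 and 14 counts per library.

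Pdcd6ip (ALIX), which binds CHMP4 proteins and links calcium-sensing partners to ESCRT-III, had the same mean in both genotypes within their spread. Its level was 355, 337, 322 and 342 CPM in WT 1 to 4 and 328, 340.1, 336 and 355 CPM in Gsdmd-/- 1 to 4. The Gsdmd-/- values all lay inside the WT range. The means were 339 ± 13.8 and 340 ± 11.2 CPM (SD, n = 4 each), and the log2 fold change was 0.0022 (SE 0.073, 95% interval -0.16 to 0.16, edgeR adjusted p = 0.9948). With 1 library left out it lay between -0.022 and 0.026 and was below 0 without WT 2, WT 3, Gsdmd-/- 2 or Gsdmd-/- 4. The gene lies on the minus strand at chr9:113651744-113708259. It was the most abundant member by mean CPM, although Chmp4b was above it in WT 4, Gsdmd-/- 1 and Gsdmd-/- 3. The interval of Pdcd6ip allowed a change of at most 1.12-fold up or to 0.895-fold down.

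Among the ESCRT-III subunits, Chmp4b encodes the one that makes up most of the filament. Its level was 279.8, 259.9, 302 and 371 CPM in WT 1 to 4 and 339, 267, 347 and 283 CPM in Gsdmd-/- 1 to 4. WT 4 was the highest of all 8 libraries and WT 2 the lowest, so that the WT range enclosed the Gsdmd-/- range. The means were 303 ± 48.2 and 309 ± 39.8 CPM (SD, n = 4 each), and the log2 fold change was 0.028 (SE 0.13, 95% interval -0.26 to 0.32, edgeR adjusted p = 0.9539). Its sign was not stable, at -0.0077 without WT 1, -0.043 without WT 2, -0.019 without Gsdmd-/- 1 and -0.030 without Gsdmd-/- 3, and it was 0.14 without WT 4. Chmp4b lies on the plus strand at chr2:154651705-154694785.

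Chmp3 and Chmp2a encode subunits that join the filament late and prepare it for VPS4. Chmp3 was 97.3, 95.8, 105 and 111 CPM in WT 1 to 4 and 105, 103, 113 and 95.3 CPM in Gsdmd-/- 1 to 4. Its genotypes overlapped almost completely, with a log2 fold change of 0.023 (SE 0.085, 95% interval -0.17 to 0.21, edgeR adjusted p = 0.9431) that lay between -0.016 and 0.068 with 1 library left out and was below 0 without WT 1, WT 2 or Gsdmd-/- 3. Chmp2a was 94.0, 76.3, 83.6 and 126 CPM in WT 1 to 4 and 105, 97.5, 120.1 and 92.3 CPM in Gsdmd-/- 1 to 4. WT 4 was again the highest library and WT 2 and WT 3 the lowest, and the highest WT value was 1.66 times the lowest. The ratio of the genotype means was 1.09, and the log2 fold change of Chmp2a was 0.13 (SE 0.15, 95% interval -0.21 to 0.47, edgeR adjusted p = 0.788). With 1 library left out its log2 fold change was between 0.031 (without WT 2) and 0.30 (without WT 4), and it was 0.070 without WT 3, 0.051 without Gsdmd-/- 3 and -0.087 without WT 2 and WT 3. Chmp3 lies at chr6:71543797-71582609 on the plus strand and shares 96 bases, 2.95% of its exon length, with the antisense gene 1700040L08Rik, and Chmp2a lies at chr7:13032010-13034807 on the minus strand.

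Chmp2b encodes the paralog of CHMP2A that is mutated in an inherited form of frontotemporal dementia. It was 71.6, 64.6, 69.1 and 81.7 CPM in WT 1 to 4 and 72.8, 70.9, 96.3 and 75.0 CPM in Gsdmd-/- 1 to 4. Gsdmd-/- 3 lay far above the rest of its group, and the other 3 Gsdmd-/- libraries lay inside the WT range. The log2 fold change was 0.13 (SE 0.12, 95% interval -0.13 to 0.39, edgeR adjusted p = 0.7028), and it was between 0.025 (without Gsdmd-/- 3) and 0.20 (without WT 4) when 1 library was left out. Chmp2b lies on the minus strand at chr16:65539128-65562726.

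Chmp1a and Chmp5 encode accessory ESCRT-III subunits, of which CHMP1A works with IST1 and CHMP5 binds the VPS4 cofactor LIP5. Chmp1a was 127, 125, 133 and 144 CPM in WT 1 to 4 and 144, 129, 150.5 and 137 CPM in Gsdmd-/- 1 to 4. Chmp5 was 69.3, 81.9, 91.8 and 92.8 CPM in WT 1 to 4 and 89.9, 84.8, 101 and 82.2 CPM in Gsdmd-/- 1 to 4. Gsdmd-/- 3 was the highest library for both genes, and the genotypes overlapped in both. The log2 fold change was 0.085 for Chmp1a (SE 0.082, 95% interval -0.098 to 0.27, edgeR adjusted p = 0.7354) and 0.091 for Chmp5 (SE 0.11, 95% interval -0.15 to 0.34, edgeR adjusted p = 0.7884). With 1 library left out, that of Chmp1a was between 0.051 (without Gsdmd-/- 3) and 0.13 (without WT 4), and that of Chmp5 between 0.010 (without WT 1) and 0.15 (without WT 4). Without Gsdmd-/- 3 that of Chmp5 was 0.030. Chmp1a lies at chr8:123204264-123212763 on the minus strand and Chmp5 at chr4:40948407-40965303 on the plus strand.

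The ATPases Vps4a and Vps4b pull single subunits out of ESCRT-III filaments and so recycle them. Vps4a was 43.2, 38.7, 46.2 and 50.1 CPM in WT 1 to 4 and 50.4, 47.3, 49.1 and 47.6 CPM in Gsdmd-/- 1 to 4. The Gsdmd-/- libraries kept close together (SD 1.42 CPM), the WT libraries did not (SD 4.85 CPM), and WT 4 overlapped with the Gsdmd-/- group. Vps4b was 164, 153, 159 and 154 CPM in WT 1 to 4 and 160.4, 163, 173 and 167.5 CPM in Gsdmd-/- 1 to 4. It varied least of all members in WT, where the highest library was 1.07 times the lowest, and WT 1 overlapped with the Gsdmd-/- group. The log2 fold change was 0.13 for Vps4a (SE 0.092, 95% interval -0.080 to 0.33, edgeR adjusted p = 0.6453) and 0.078 for Vps4b (SE 0.070, 95% interval -0.078 to 0.23, edgeR adjusted p = 0.7124). With 1 library left out, that of Vps4a was between 0.058 (without WT 2) and 0.19 (without WT 4), and that of Vps4b between 0.058 and 0.096. Vps4a lies at chr8:107031222-107045755 on the plus strand and shares 57 bases, 2.26% of its exon length, with Pdf on the other strand, and Vps4b lies at chr1:106764071-106796728 on the minus strand. Whether reads were counted by strand was not given in the sources used here, so reads from Chmp3 or Vps4a and from their overlapping partners cannot be told apart over these bases.

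**Figure D2:**
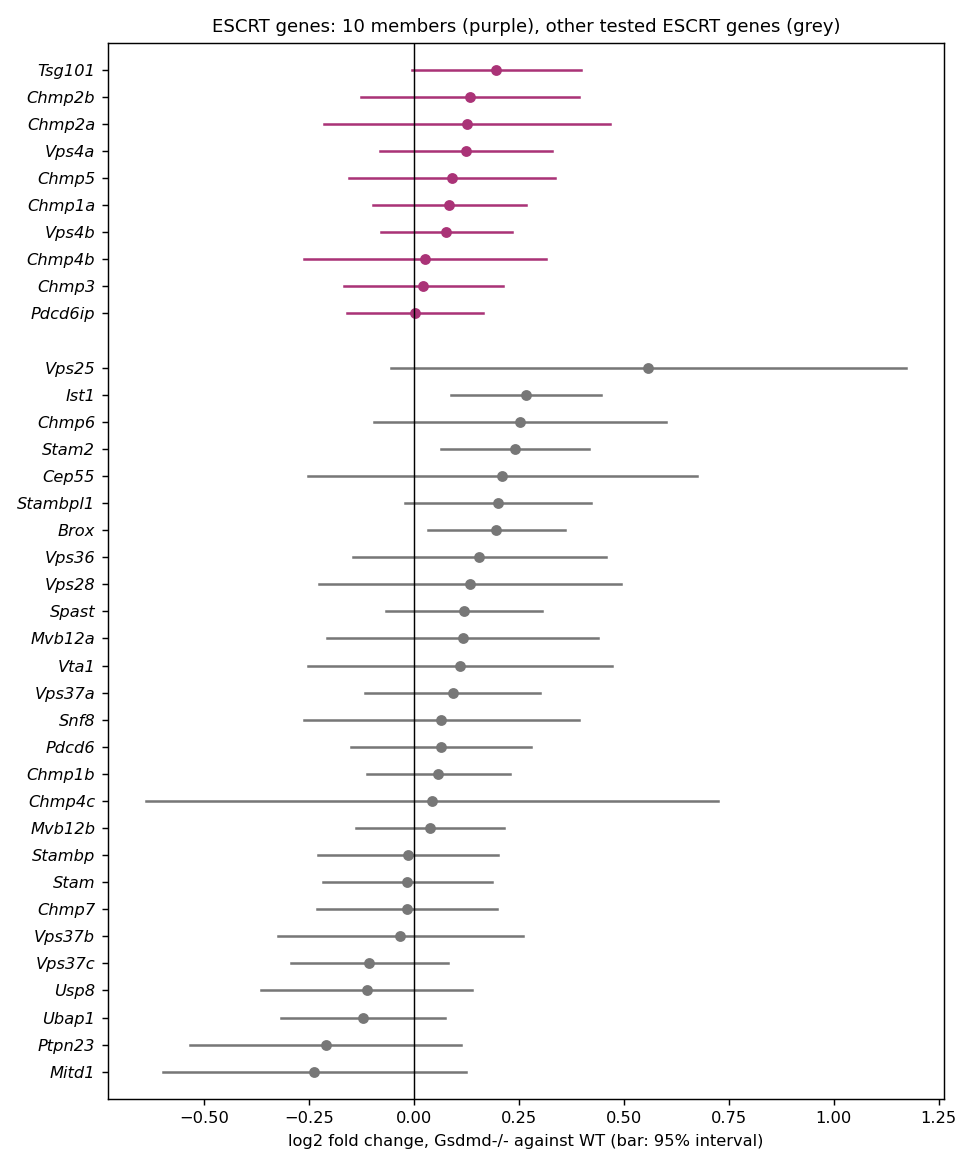
Log2 fold change, Gsdmd-/- minus WT, of the 10 ESCRT members (purple) and of the 27 other tested ESCRT genes (grey), with a line at 0. Bars are 95% intervals from the edgeR quasi-likelihood fit (4 libraries per genotype). The intervals of all 10 members include 0, and that of Tsg101 reaches from -0.0046 to 0.40. Among the grey genes, the intervals of Ist1, Stam2 and Brox lie above 0, and none of these genes was called.

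Since paralogs are measured in the same library, their balance does not depend on library scaling. Exon length differed between Vps4a (2522 bases) and Vps4b (8905 bases), however, and levels moved with length between libraries. Tested genes of 2451 to 4163 bases had a median log2 level, relative to each gene's own mean, of -0.039 in WT 2 and 0.073 in WT 4. For genes of 6528 to 123179 bases it was 0.13 and -0.12. The part of this in the shares was not tested. Vps4b held 79.1%, 79.8%, 77.5% and 75.4% of the counts of Vps4a and Vps4b in WT 1 to 4 and 76.1%, 77.6%, 77.9% and 77.9% in Gsdmd-/- 1 to 4. The lowest share, in WT 4, had a Wilson 95% interval of 73.9 to 76.9%, and the highest, in WT 2, one of 78.4 to 81.2%, which cover counting error only. The mean shares were 78.0 ± 1.95% and 77.4 ± 0.852% (SD, n = 4 each), a difference of -0.606 percentage points (exact permutation test, two-sided, p = 0.629, adjusted p = 0.886 over the 2 pairs). Chmp2b held 43.4 ± 2.98% of the counts of Chmp2a and Chmp2b in WT and 43.1 ± 1.92% in Gsdmd-/-, a difference of -0.321 percentage points (exact permutation test, two-sided, p = 0.886, adjusted p = 0.886). The smallest p this test can reach with 4 libraries against 4 is 0.0286. Divided by exon length, Vps4b made up 50.1% and 49.2% of its pair in WT and Gsdmd-/-, and Chmp2b made up 31.6% and 31.3% of its pair. The ATPases were about equal by this measure only. Its divisor is the union over all annotated transcripts, which need not be the length expressed in these cells.

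Levels were compared between members after division of CPM by the exon length in kb. Chmp4b was highest, with 150 ± 23.8 CPM per kb in WT and 152.5 ± 19.6 CPM per kb in Gsdmd-/- (SD, n = 4 each). Over all 8 libraries the mean level was 151 CPM per kb for Chmp4b, 85.6 for Chmp2a, 57.1 for Chmp5, 49.2 for Pdcd6ip and 41.6 for Chmp1a. It was 39.0 CPM per kb for Chmp2b, 31.8 for Chmp3, 21.5 for Tsg101, 18.5 for Vps4a and 18.2 for Vps4b, and the highest was 8.31 times the lowest. Neighbours in this order whose libraries did not overlap were Chmp4b and Chmp2a, Pdcd6ip and Chmp1a, and Chmp3 and Tsg101, whereas the ranges of the other neighbours over the 8 libraries overlapped. Since the members were measured in the same libraries, neighbours were also compared within each. Chmp2a was above Chmp5, Chmp2b above Chmp3 and Tsg101 above Vps4a in 8 of 8 libraries, although their ranges overlapped. Chmp5 was above Pdcd6ip and Chmp1a above Chmp2b in 7 of 8 libraries, and Vps4a above Vps4b in 6 of 8. Pdcd6ip, the first member by mean CPM, ranked below Chmp4b, Chmp2a and Chmp5 per length. Its exons add up to 6903 bases, compared with 2027 bases for Chmp4b. Exon length here is the union over all annotated transcripts, which need not be the length expressed in these cells.

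**Figure D3:**
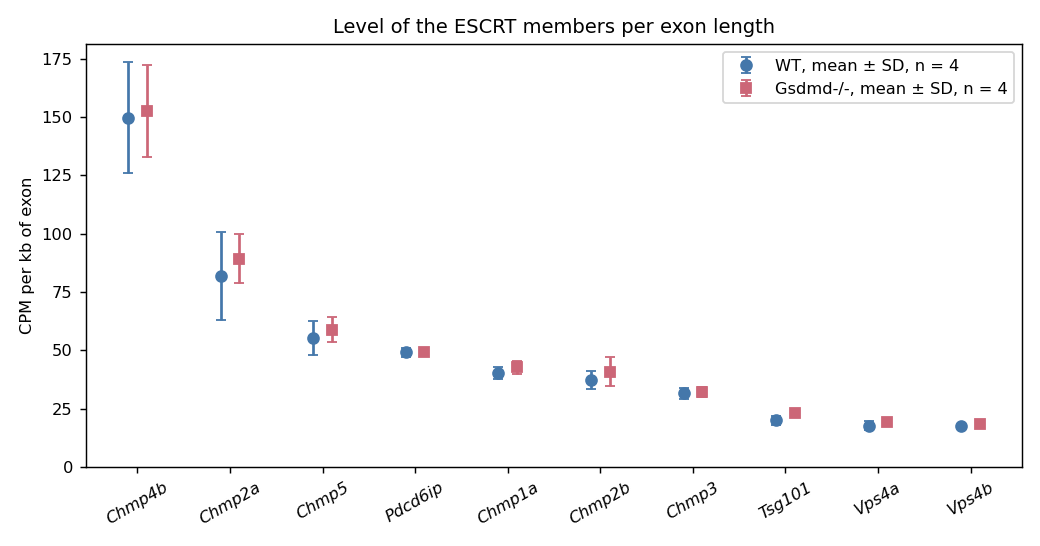
CPM per kb of exon (vertical axis, linear from 0) of the 10 ESCRT genes in order of their mean over 8 libraries, with circles for WT and squares for Gsdmd-/- as mean ± SD (n = 4 each). Chmp4b stands above the rest at about 150 CPM per kb, the ATPases and Tsg101 come last, and the genotypes lie side by side for every gene.

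The members varied between libraries of the same genotype. The ratio of the highest to the lowest WT library exceeded the ratio of the genotype means for 10 of 10 members, beside 92.9% of all genes tested, and the same ratio among Gsdmd-/- libraries did so for 8 of 10, beside 83.8%. Both counts are near what was found for all genes. WT 2 was the lowest of all libraries for 7 members and Gsdmd-/- 3 the highest for 6. The share of all genes with these extremes was not counted, so they are not read as particular to the members. Relative to each gene's own mean, the members averaged -0.088, -0.16, -0.054 and 0.12 on the log2 scale in WT 1 to 4 and 0.050, -0.025, 0.17 and -0.015 in Gsdmd-/- 1 to 4. The summed level of the members was 1385 ± 107 CPM in WT (1283 to 1536) and 1443 ± 83.4 CPM in Gsdmd-/- (1365 to 1554).

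This pattern moved with exon length. Of the 8 members with exons of less than 4 kb in all, 7 had WT 4 as the highest WT library and Gsdmd-/- 3 as the highest Gsdmd-/- library, with Vps4a as the exception (Gsdmd-/- 1). Neither of the 2 members over 6 kb, Pdcd6ip with 6903 bases and Vps4b with 8905 bases, showed both, although Gsdmd-/- 3 was the highest library for Vps4b too. The 12906 tested genes with a length were put into 4 groups of about equal size by exon length, and the pattern occurred in 32.1% of the shortest group (57 to 2448 bases), 24.2% and 12.6% of the next ones, 6.04% of the longest group (6528 to 123179 bases) and 18.7% of all. In the shortest group, the median level relative to each gene's own mean was -0.085, -0.15, -0.019 and 0.18 on the log2 scale in WT 1 to 4 and 0.076, -0.053, 0.16 and -0.047 in Gsdmd-/- 1 to 4. The median log2 fold change between the genotypes was 0.038 in the shortest group and -0.050 in the longest. The split of the members by length was made after their values had been seen, and the part of exon length in the fold changes of the members was not tested.

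**Figure D4:**
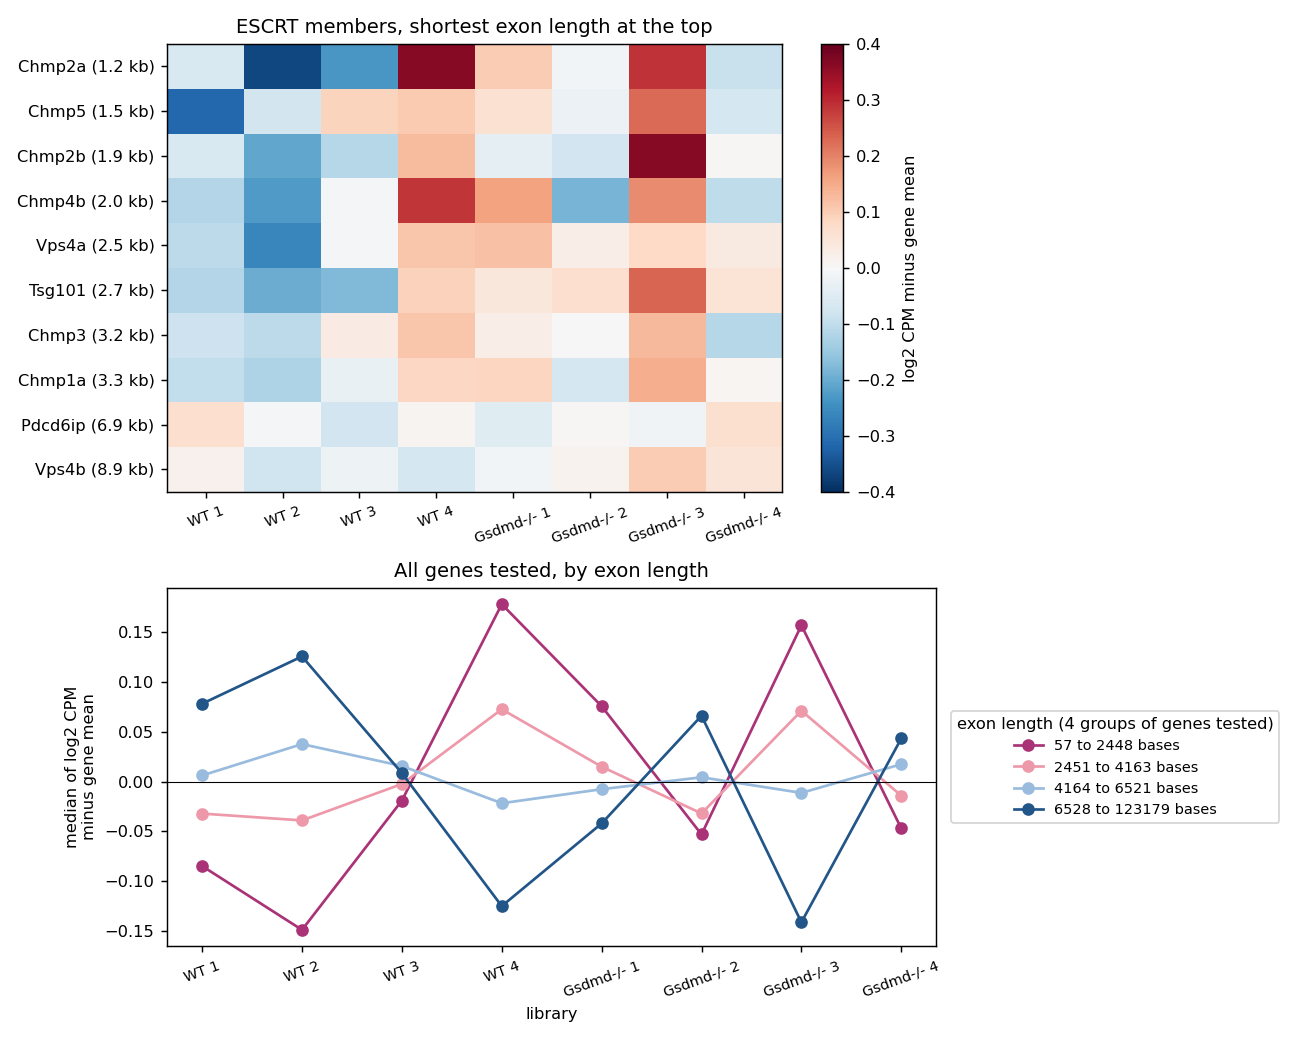
Top, log2 CPM of each ESCRT gene minus its own mean over the 8 libraries (colour), with the genes in order of exon length in kb. Bottom, the median of the same quantity over all genes tested in each of 4 groups by exon length. WT 4 and Gsdmd-/- 3 are high in both for short genes, and the longest group moves the other way.

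The genes whose level varied most like the members were Capzb, Hnrnpc and Hnrnpa2b1. Their log2 CPM, each taken relative to the gene's own mean, differed from the average of the members by 0.019, 0.022 and 0.022 on average over the 8 libraries, the smallest differences among 8171 genes of at least 10 CPM. The likeness was measured over libraries that differ in the length pattern above, and nothing about shared function or control was tested.

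The other ESCRT genes were read from a list of 31 symbols, of which 30 had a row and 27 were tested. None was called at an adjusted p under 0.05, and 3 of 27 had an unadjusted p under 0.05, all of them higher in Gsdmd-/-, beside 12.0% of all genes in either direction. Of the 27 log2 fold changes, 18 were above 0 and 9 below, with a median of 0.065. Ist1, an ESCRT-III-like subunit that recruits spastin and VPS4 partners, was 70.8, 65.3, 68.6 and 72.6 CPM in WT 1 to 4 and 87.8, 76.0, 88.1 and 81.9 CPM in Gsdmd-/- 1 to 4. The groups did not overlap, yet its log2 fold change of 0.27 (SE 0.080) had an adjusted p of 0.2348 with edgeR. The ranges also did not overlap for Stam2 (ESCRT-0), Brox (an ALIX relative), Stambpl1 (a deubiquitinase) and Vps25 (ESCRT-II), which were all higher in Gsdmd-/- and were not called. They were named after their values had been seen, except Vps25, and 5 of 27 such genes compare with 7.60% of all genes. Vps25 is counted among the 5, but it passed the filter on low counts only through the Gsdmd-/- libraries, where it was higher. A difference was therefore built into its selection, and its missing overlap and log2 fold change support nothing. Stam2 had a mean of 44.8 CPM in WT and 53.0 CPM in Gsdmd-/- (edgeR adjusted p = 0.2743), and Brox one of 139.7 and 160.1 CPM (edgeR adjusted p = 0.3308). The other genes with the highest log2 fold changes were Vps25 (0.56, adjusted p = 0.4696) and Chmp6 (0.25, adjusted p = 0.5697), and the lowest values belonged to Mitd1 (-0.24, adjusted p = 0.6085), Ptpn23 (-0.21, adjusted p = 0.6152) and Ubap1 (-0.12, adjusted p = 0.635), all from the same fit.

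Some ESCRT genes could not be measured well in these counts. Hgs, the ESCRT-0 partner of Stam2, is listed under 2 identifiers and had at most 1 count in any library under either, which was too few for a test. Its gene models at chr11:120467635 share 2897 bases of exon, which is 97.2% of one and 99.6% of the other. Vps25 had 8 to 21 counts per library, and 67.2% of its exon length is shared with Ramp2 on the same strand. Vps37d and Ubap1l, both of ESCRT-I, also had too few counts to be tested. The part of shared exons in these low counts was not tested.

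Other genes with a known role in plasma membrane repair or rupture were read from a list of 23, of which 21 were tested, all except Dysf and Ehd2. With edgeR's quasi-likelihood test none was called, whereas DESeq2 and the edgeR exact test each called 1 lower (Trim72, described next), and 3 of 21 had an unadjusted p under 0.05 (1 higher and 2 lower in Gsdmd-/-), beside 12.0% of all genes. Of the 21 genes, 1 also passed an absolute log2 fold change of 0.5, beside 4.83% of all genes, and 2 (Trim72 and Anxa6) had no overlap between the genotypes, beside 7.60%. The median log2 fold change was 0.066, with 12 above 0 and 9 below. Trim72, which encodes the repair protein MG53 of muscle, was 0.669, 1.53, 1.89 and 0.669 CPM in WT 1 to 4 and 0.415, 0.296, 0.190 and 0.265 CPM in Gsdmd-/- 1 to 4. The WT libraries held 11 to 31 counts of it and the Gsdmd-/- libraries 3 to 7. It therefore passed the filter on low counts through the WT libraries alone, so that a difference was built into its selection, and its log2 fold change of -1.99 (SE 0.47, edgeR adjusted p = 0.1249), its missing overlap and its place in the counts above support nothing. WT 2 and WT 3, the libraries that stood apart, had the highest values.

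The remaining repair genes at the ends of the list were Cav1 (log2 fold change 0.56, adjusted p = 0.4411), a coat protein of caveolae, Ninj1 (0.26, adjusted p = 0.4984), which ruptures the plasma membrane late in lytic death, and Anxa5 (0.26, adjusted p = 0.4003), a calcium-dependent binder of exposed phosphatidylserine. At the low end were Syt7 (-0.46, adjusted p = 0.801), a calcium sensor of lysosome exocytosis, and Ehd1 (-0.33, adjusted p = 0.3486), which acts in endocytic recycling. Cav1 was 23.9, 12.1, 11.5 and 28.5 CPM in WT 1 to 4 and between 27.3 and 29.4 CPM in Gsdmd-/-, so that WT 2 and WT 3 were far below the other 6 libraries. Anxa6, an annexin found at injured membranes, was also without overlap, at 169 to 184 CPM in WT and 186 to 197 CPM in Gsdmd-/- (adjusted p = 0.5635), and was named after its values had been seen. All adjusted p-values here are from edgeR's quasi-likelihood test over 12911 genes.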

How the data were processed

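The authors had total RNA of BMDMs extracted with TRIzol, TruSeq libraries made and sequenced by a company, and deposited whole-number read counts per gene for 4 WT and 4 Gsdmd-/- libraries without normalization. The submitters' processing notes name the build mm10, and the aligner, counting tool, strand setting and annotation are not given in the sources used here. Of 54532 identifiers, 54495 were found in GENCODE M21 (GRCm38), the source of positions and exon lengths. Promoter sequences are from RefSeq (GRCm38.p6).

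In edgeR 4.0.16 under R 4.3.3, genes were kept by filterByExpr, libraries were scaled with TMM factors, and a quasi-likelihood F test (two-sided) compared the genotypes with no further covariate. The standard error was taken as the absolute log2 fold change divided by the square root of F. CPM were computed with these factors, and 2 was the prior count for log2 CPM. Paralog shares were compared by an exact permutation test in scipy 1.17.1. Alternatives were DESeq2 1.42.0, limma 3.58.1 (voom), the exact test of edgeR, RLE and upper-quartile scaling, other filters, left-out libraries, a block for the replicate number and, added after the data had been seen, the newer form of the quasi-likelihood fit. The fit was tested on simulated data. The members, lists and tests were chosen with earlier results of these data known. Named were all members and, in both other lists, called genes and the 3 highest and 3 lowest log2 fold changes among tested genes, besides untested ESCRT genes, Gsdmd and the 3 genes most like the members. No protein sequence was used here.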

Additional observations from a re-analysis of the deposited data

Results flagged for a closer look

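Among 26 groups of 4 libraries examined for a library far from the rest (Dixon's test at 95%, which chance passes in about 1 in 20 groups), 2 had one, and in both it was Gsdmd-/- 3. Tsg101 was at 68.7 CPM there, the highest value, while the lowest in its group was 60.4 CPM, and the gap made up 0.884 of the range. Chmp2b was at 96.3 CPM there, the highest value, while the lowest in its group was 70.9 CPM, and the gap made up 0.836 of the range. Gsdmd-/- 3 was also high for short genes in general, and the part of that in these values was not tested.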

How the results depend on the processing

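No ESCRT member and no other ESCRT gene was called under any setting tried, and leaving out 1 library at a time gave 0 calls in every case. Among the other repair genes, 1 (Trim72, lower) was called by DESeq2 and by the exact test, and 1 passed the cutoff without adjustment. Trim72 passed the filter on low counts through the WT libraries alone, so these calls support nothing. Over all genes, 18 higher and 27 lower calls became 105 and 187 with DESeq2, 92 and 154 with the exact test, 44 and 65 without a filter, 53 and 108 without WT 2 and WT 3, and 199 and 424 at the unadjusted cutoff. Leaving out 1 library gave 8 to 28 higher and 5 to 56 lower calls, with the highest counts without WT 4. With the replicate block there were 9 higher and 16 lower calls. Libraries with the same number correlated at 0.027, 0.18, 0.041 and -0.20 in their deviations, and only WT 2 correlated best with the Gsdmd-/- library of its own number, so the numbers were not taken as pairs.

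The sign turned for 4 members and both paralog shares, none of which was called. Pdcd6ip was at -0.00082 with RLE, -0.00087 with DESeq2, -0.0040 with at least 10 counts in every library and -0.041 without WT 2 and WT 3, and between -0.022 and 0.026 with 1 library left out. Without WT 2 and WT 3, Chmp4b was at -0.074, Chmp3 at -0.0053 and Chmp2a at -0.087, and with 1 library left out Chmp4b was between -0.043 and 0.14 and Chmp3 between -0.016 and 0.068. The Vps4b share differed by 0.0866 percentage points and the Chmp2b share by 1.83 without WT 2 and WT 3, and by -1.45 to 0.0112 and -1.70 to 0.501 with 1 library left out. The cause of these changes was not tested. The number of libraries, 4 per genotype, limits the precision of each fold change to the interval given with it. The median log2 fold change of the members lay between 0.041 and 0.14 when 1 library was left out.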
